A study of Homo sapiens with 12 samples.

Results

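JIMT1 cells grown for 7 days on polyHEMA were compared with the same cells grown for 7 days as a monolayer on plastic. The comparison holds 4 of the 12 expression arrays of the study, chosen by their titles, namely the 2 arrays of the polyHEMA culture at 7 days (PH7d) and the 2 arrays of the 2D culture (2D7d), and it was made over 10970 genes. The study cultured JIMT1 cells in 2D, on polyHEMA, on Matrigel and as xenografts in mice, to compare culture models used for drug screening. JIMT1 is an established, epithelial-like breast cancer line that carries HER2 (ERBB2) and lacks the estrogen and progesterone receptors, and it was derived from a breast cancer that was resistant to trastuzumab. Both groups were grown in 6-well plates in the same medium with serum and insulin and received no drug. PolyHEMA is a polymer coat that keeps cells from attaching to the plate, so that they hold on to each other and form masses. All arrays come from this 1 line, the arrays of a group are described as biological replicates, and the number of cells plated for the RNA cultures is not given in the sources used here. The labels do not say that the numbers 1 and 2 pair arrays across groups, and here they only name the arrays.

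Epithelial cells read their attachment to the matrix through integrins, which pass signals to focal adhesions, to the actin cytoskeleton and to the transcriptional co-activator YAP, and loss of attachment can lead to a form of cell death called anoikis. Interferons are secreted proteins made when cells sense foreign or misplaced nucleic acid. Their receptors act through JAK kinases, STAT factors and IRF9 on a short promoter element, the interferon-stimulated response element, and the genes switched on in this way include antiviral enzymes, RNA-binding proteins and the antigen presentation machinery.

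The arrays measured each gene as the brightness of a bead type that carries its probe. Values are given as log2 normalized signal, and a probe counted as detected where its detection p-value was under 0.01. The 2D7d arrays detected 13952 and 14784 probes, and the PH7d arrays detected 17739 and 15093. ERBB2 was among the brightest genes, with 13.85 and 13.97 on the 2D7d arrays and 14.07 and 13.99 on the PH7d arrays. GRB7, a neighbor of ERBB2 in the genome, and the epithelial markers EPCAM, CDH1, KRT8, KRT18 and KRT19 were detected on all 4 arrays, and of the 8 measured identity markers 0 were called changed. The transcript of ESR1, the estrogen receptor gene, was detected on all 4 arrays, with 6.38 and 6.12 in 2D7d, next to the lowest detected signals of 6.27 and 6.05 on those arrays, and 7.71 and 7.15 in PH7d, while the probe of PGR did not pass the detection filter. Of the fibroblast markers, 4 of 9 were measured and only COL1A1 was detected on both arrays of either group, with 6.36 and 6.96 in 2D7d and 6.32 and 7.08 in PH7d. Of the macrophage and leukocyte markers CD14, CD68 and CSF1R were measured and 0 of 3 were called, and PTPRC, the marker of all leukocytes, did not pass the detection filter.

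A gene was called changed where its limma adjusted p was under 0.05 and its mean signal differed at least 2-fold. With these limits, 425 of the 10970 genes were higher in PH7d than in 2D7d (3.87%) and 259 were lower (2.36%). Each list count below is to be read beside these shares, and a short list with few or no calls lies near them. The p-values rest on a spread pooled over all 12 arrays of the study. A fit of the 4 arrays alone gave 10 higher and 5 lower genes. Weights that let each group have its own spread gave 192 and 109, with a weight of 0.213 for PH7d and 1.42 for 2D7d. The PH7d replicates lay far apart. The median absolute difference over all genes was 0.69 on the log2 scale between the PH7d arrays and 0.23 between the 2D7d arrays, and 3345 genes against 216 genes differed at least 2-fold between the replicates of a group. Replicate 1 stood 0.85 from the 2D7d mean in the median gene and replicate 2 stood 0.32 from it. For this reason the values are given array by array.

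Taken alone, replicate 1 of PH7d was at least 2-fold above the 2D7d mean for 2679 genes and at least 2-fold below it for 1963, whereas replicate 2 was above for 679 and below for 388. Both arrays passed 2-fold in the same direction for 507 genes above and 294 below. The called genes came mainly from this shared part. Of the 425 genes called higher, 384 were at least 2-fold up on each PH7d array, 32 on replicate 1 only and 9 on replicate 2 only. Of the 259 genes called lower, the numbers were 224, 33 and 2. Both PH7d arrays lay beyond both 2D7d arrays for all 425 and all 259 called genes. Such a separation was common by itself, since both PH7d arrays were above both 2D7d arrays for 27.4% of all genes tested and below them for 27.8%.

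**Figure D1:**
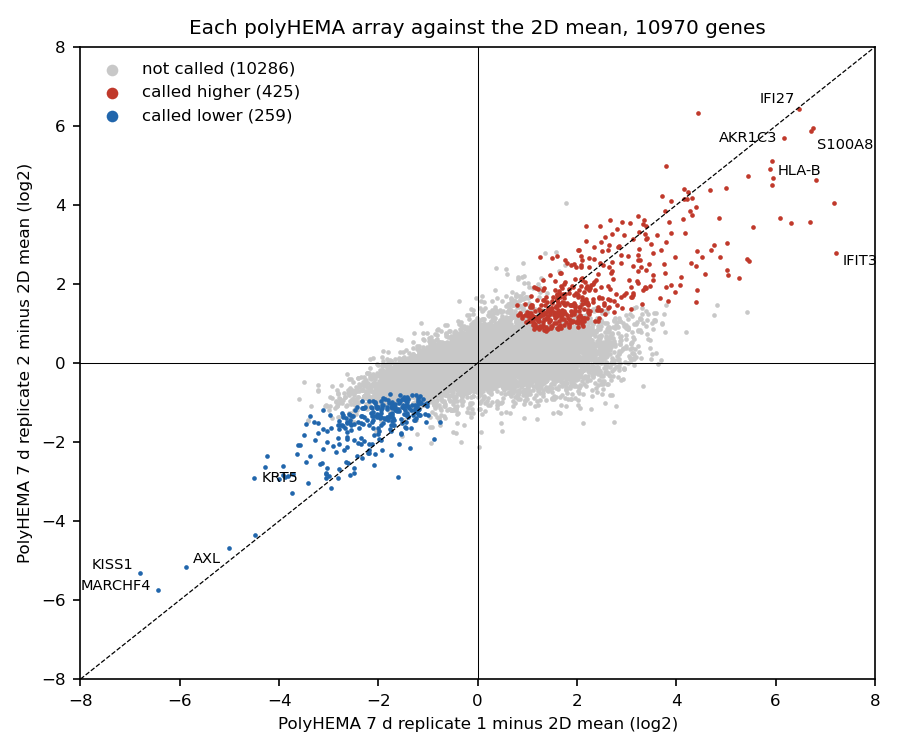
Difference of each PH7d array from the 2D7d mean for 10970 genes, in log2 units, with replicate 1 on the horizontal axis and replicate 2 on the vertical axis. Red points are the 425 genes called higher, blue points the 259 genes called lower, grey points the rest, and the dashed line marks equal values. The grey cloud is wider along replicate 1, while IFI27, S100A8 and AXL lie close to the dashed line.

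The count of called genes depended on single arrays. Leaving 1 array out of PH7d or 2D7d left that group with a lone array, which was then assumed to vary like the arrays of the other groups. Without replicate 1 of PH7d, 202 genes were called higher and 82 lower, and without replicate 2 of PH7d the numbers were 1482 and 1354. Without replicate 1 of 2D7d, 102 were higher and 54 lower, and without replicate 2 of 2D7d, 156 and 82. In all, 89 genes called higher and 46 called lower kept their call whichever of the 4 arrays was left out, and these are named below as genes that kept their call without any 1 array. When each array was scaled to a common median in place of quantile normalization, 510 genes were higher and 185 lower, so that the share of higher calls went from 62.1% to 73.4%, and the median difference over all genes went from 0.05 to 0.21.

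The interferon genes had the highest medians of all gene lists measured. Among the IFIT and OAS genes, which encode RNA-binding proteins and oligoadenylate synthetases of the antiviral response, 7 of 8 measured genes were called higher and 0 lower, with a median log2 difference of 3.99, where the median over all 10970 genes was 0.05. Among 39 other interferon-stimulated genes, 31 were called higher and 0 lower, with a median of 3.14. The list medians over the 2D7d mean were 4.58 and 3.59 for the IFIT and OAS genes on PH7d replicates 1 and 2, and 3.80 and 2.45 for the other genes. Thus both PH7d arrays were raised, replicate 1 more than replicate 2.

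The promoters of these genes carry the letters of the response element. The following promoters, from 250 bases before to 50 bases after the start of transcription, are shown because IFIT1, ISG15 and IFI44L were each called higher and each holds 2 matches, 5′ to 3′ on the strand of the gene, with the matches to GAAA, NN of any kind and GAAA again, searched on both strands, in capitals, some of which overlap. They come from RefSeq on the build GRCh38.p14 and lie at chr10:89392373-89392672 (plus strand), chr1:1013247-1013546 (plus strand) and chr1:78620198-78620497 (plus strand).
IFIT1: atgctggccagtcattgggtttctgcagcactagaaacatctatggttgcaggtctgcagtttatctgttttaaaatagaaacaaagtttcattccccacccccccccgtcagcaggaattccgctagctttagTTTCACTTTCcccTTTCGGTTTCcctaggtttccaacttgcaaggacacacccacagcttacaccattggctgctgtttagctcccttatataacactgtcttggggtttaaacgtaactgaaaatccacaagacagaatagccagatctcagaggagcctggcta
ISG15: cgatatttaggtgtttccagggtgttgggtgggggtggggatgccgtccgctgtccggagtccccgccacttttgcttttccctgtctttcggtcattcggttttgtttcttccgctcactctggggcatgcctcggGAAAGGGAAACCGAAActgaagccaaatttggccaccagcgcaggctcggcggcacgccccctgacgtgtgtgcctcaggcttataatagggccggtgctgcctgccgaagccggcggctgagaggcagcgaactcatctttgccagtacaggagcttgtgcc
IFI44L: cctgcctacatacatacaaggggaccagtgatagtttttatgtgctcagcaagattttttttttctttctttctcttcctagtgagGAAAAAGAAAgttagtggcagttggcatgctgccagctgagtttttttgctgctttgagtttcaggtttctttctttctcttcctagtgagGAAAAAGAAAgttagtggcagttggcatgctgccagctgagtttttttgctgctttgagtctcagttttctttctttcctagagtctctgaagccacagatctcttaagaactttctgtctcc

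A promoter sequence was at hand for 335 of the 425 genes called higher, and 54 of these (16.1%) held at least 1 match in any of their listed promoters. The share was 6.15% of the 179 genes called lower that had a sequence and 3.97% of the 8892 genes tested that had one, and 3.57% of all 35116 promoters in the table held a match. Of the other interferon-stimulated genes, 24 of 34 with a sequence held a match, as did 4 of 5 IFIT and OAS genes, the exception being OAS1. A match is a description of the letters and not evidence of a bound factor.

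Within the OAS family, OAS2 was 4.71 and 8.56 on the 2D7d arrays and 13.40 and 12.59 on the PH7d arrays. The difference was 6.36 ± 0.98 (SE from the fit of all 12 arrays, n = 2 arrays per group) or 82-fold, with a limma adjusted p of 0.00642. Replicate 1 of 2D7d did not detect OAS2, so that this fold rests partly on background. OAS3 was 5.95 and 8.36 in 2D7d and 11.30 and 11.56 in PH7d, a 19.4-fold difference (limma adjusted p = 0.00793). OAS1 and OASL rose 13.1-fold and 11.2-fold. The 2D7d arrays themselves differed for these genes, replicate 2 being the higher one, and both lay below both PH7d arrays, as for every gene called higher. Over the 8 IFIT and OAS genes the median excess of 2D7d replicate 2 over replicate 1 was 1.74, where it was 0.29 over the 39 other interferon genes.

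The IFIT genes differed between the PH7d arrays. IFIT1, which binds RNA that lacks the cap marks of the host, was 5.89 and 8.43 in 2D7d and 13.96 and 11.79 in PH7d, 52.6-fold higher (difference 5.72 ± 0.87, limma adjusted p = 0.00618). Replicate 1 of 2D7d did not detect IFIT1. IFIT3 was not detected in 2D7d (5.09 and 5.23) and was 12.37 and 7.94 in PH7d, at least 15.9-fold higher, with a limma adjusted p of 0.0498 that lies next to the limit. IFIT2 rose 12.9-fold from 7.75 and 8.14 to 12.97 and 10.30. Replicate 1 of PH7d was above replicate 2 for each of these 3 genes. Leaving out single arrays changed the number of IFIT and OAS genes called from 7 to 5 without PH7d replicate 1, to 7 without PH7d replicate 2, to 4 without 2D7d replicate 1 and to 5 without 2D7d replicate 2. IFIT1, OAS2, OAS3 and OASL kept their call without any 1 array. With weights that let each group have its own spread 4 of the 7 stayed called, and OAS2 (limma adjusted p = 0.0561), OAS3 (0.0572) and OASL (0.0876) did not.

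Among the other interferon-stimulated genes, IFI27, which encodes a small mitochondrial membrane protein, had the largest fitted difference among the genes called higher. Its signal was 4.61 and 8.02 in 2D7d and 12.80 and 12.76 in PH7d, a difference of 6.46 ± 1.00 or 88-fold (limma adjusted p = 0.00673). The PH7d arrays were nearly equal for this gene, and the spread lay between the 2D7d arrays. MX2, an antiviral GTPase, was 5.10 and 7.17 in 2D7d and 11.58 and 10.87 in PH7d, 34-fold higher (difference 5.09 ± 0.60, limma adjusted p = 0.00213). Its relative MX1 was 8.10 and 11.12 against 14.61 and 14.05, 26.3-fold higher. IFITM1, a membrane protein that blocks the entry of viruses, was 4.59 and 7.47 in 2D7d and 11.92 and 10.93 in PH7d, 42.1-fold higher. For all 4 of these genes replicate 2 of 2D7d was above replicate 1 by more than 2 log2 units, and both stayed below PH7d, as for every gene called higher. Replicate 1 of 2D7d did not detect IFI27, MX2 or IFITM1, so that their folds and their spread in 2D7d rest partly on background.

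IFI44L and IFI44 were not detected in 2D7d. IFI44L was 4.54 and 4.77 there and 11.83 and 8.69 in PH7d, at least 17.1-fold higher (limma adjusted p = 0.00642), and IFI44 was at least 19.6-fold higher. RSAD2, the antiviral enzyme viperin, rose 29.2-fold, from 5.36 and 6.17 to 11.84 and 9.42. LAMP3, a lysosomal membrane protein that interferon induces, rose 37.2-fold (limma adjusted p = 0.00243) and was detected on only 1 of the 2 arrays of 2D7d. ISG15, a ubiquitin-like modifier, and HERC5, the ligase that attaches it, were both called, HERC5 being undetected in 2D7d (4.71 and 4.90) and 9.58 and 7.81 in PH7d. The number of called genes among the 39 went from 31 to 24 without PH7d replicate 1, to 31 without PH7d replicate 2, to 11 without 2D7d replicate 1 and to 23 without 2D7d replicate 2, and 11 kept their call without any 1 array. With the group weights 27 of the 31 stayed called, and MX1 was among those that did not (limma adjusted p = 0.0665).

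Upstream of these genes, transcripts of the interferons themselves were measured near the detection limit. IFNL1, an interferon of the lambda type that acts mainly on epithelial cells, was not detected in 2D7d (4.63 and 5.20) and was 7.82 and 8.49 in PH7d, at least 3.98-fold higher (limma adjusted p = 0.0200). IFNL2 was also undetected in 2D7d (4.67 and 4.55) and was 6.72 and 7.23 in PH7d, at least 1.76-fold higher (limma adjusted p = 0.0457). IFNB1, which encodes interferon beta, was 4.44 and 4.53 against 6.17 and 5.76, and only 1 of the 2 PH7d arrays detected it. All 3 lay higher on both PH7d arrays than on both 2D7d arrays, as did 27.4% of all genes tested. The RNA sensor IFIH1 (MDA5) rose 16.3-fold, from 5.71 and 6.62 to 11.59 and 8.80 (limma adjusted p = 0.0213), and DHX58 (LGP2), its regulator, and the DNA sensors IFI16 and AIM2 were undetected in 2D7d and detected on both PH7d arrays. In all, 7 of 15 sensors and interferon ligands were called higher and 0 lower, with a median of 1.81. Members undetected in 2D7d had passed the detection filter through another group and had little room to be called lower. Of the 7, only AIM2 kept its call without any 1 array, and 3 stayed called without PH7d replicate 1, 6 without PH7d replicate 2, 1 without 2D7d replicate 1 and 2 without 2D7d replicate 2. With the authors' processed values 0 of the 7 were called.

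The receptors and transcription factors of the pathway moved less. IRF9, the DNA-binding subunit of the complex formed with the STAT proteins, was 7.81 and 9.21 in 2D7d and 11.89 and 11.77 in PH7d, 9.96-fold higher (difference 3.32 ± 0.41, limma adjusted p = 0.00262), and it kept its call without any 1 array. IRF1 rose 3.19-fold. The other 13 measured members were not called, among them the receptor chains IL10RB (difference 0.63 ± 0.22, limma adjusted p = 0.117) and IFNGR2 (0.33 ± 0.25, adjusted p = 0.403), and the median of the 15 genes was 0.46.

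Genes of antigen presentation rose too. HLA-B, a heavy chain that presents peptides to T cells, was 7.81 and 8.62 in 2D7d and 14.14 and 13.34 in PH7d, a difference of 5.52 ± 0.58 or 46-fold (limma adjusted p = 0.00143). B2M, the light chain shared by all class I molecules, was 12.37 and 12.24 in 2D7d and 14.53 and 14.21 in PH7d, 4.19-fold higher (limma adjusted p = 0.00323). Both genes kept their call without any 1 array. HLA-F rose 7.5-fold, HLA-C 3.07-fold and HLA-E 2.47-fold, and NLRC5, the activator of class I transcription, was undetected in 2D7d and detected on both PH7d arrays. Probes for HLA genes may read near-identical relatives, so that the level of a single HLA gene is uncertain. Of 14 measured genes, 6 were called higher and 0 lower, and the list medians were 1.08 and 1.37 on PH7d replicates 1 and 2. Of 5 genes of the antigen-processing proteasome and its activator 2 were called higher, PSMB10 (2.76-fold) and PSME2 (2.12-fold), while PSMB8 and PSMB9 were not called (differences 0.73 ± 0.40 and 1.19 ± 0.46). PSMB10 kept its call in 1 of the 4 leave-outs and PSME2 in 0, and neither was called with group weights or median scaling. The number called among the 14 was 2 without PH7d replicate 1, 6 without PH7d replicate 2, 2 without 2D7d replicate 1 and 2 without 2D7d replicate 2.

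**Figure D2:**
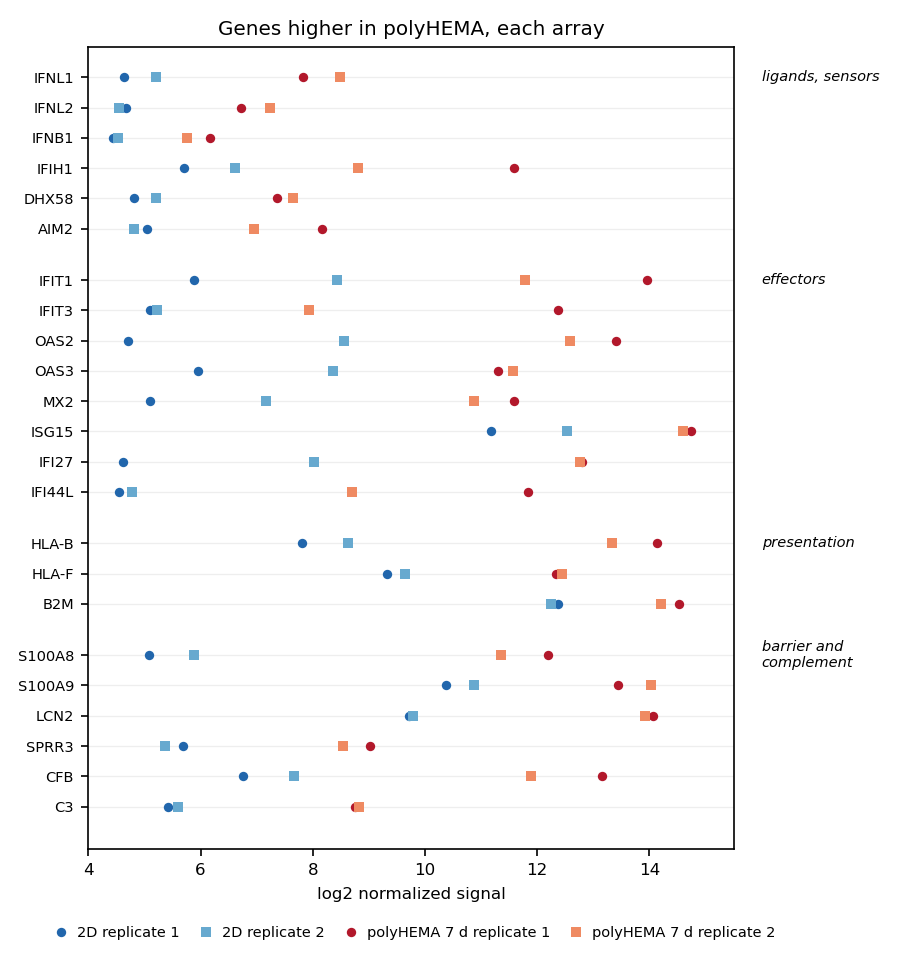
Log2 normalized signal of 23 genes on each of the 4 arrays, with 2D7d in blue and PH7d in red, circles for replicate 1 and squares for replicate 2. In each row both PH7d points lie to the right of both 2D7d points, and for IFI27, OAS2 and IFIT1 the 2D7d points are more than 2 log2 units apart.

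Inflammatory genes outside the interferon lists used here rose in part. Whether these rises are separate from the interferon response was not tested. CXCL8 (interleukin 8), which attracts neutrophils, was not detected in 2D7d (6.10 and 5.39) and was 10.31 and 8.01 in PH7d, at least 7.98-fold higher (limma adjusted p = 0.0126). IL1RN, the antagonist of the interleukin 1 receptor, was at least 5.64-fold higher, CCL5 was 7.06-fold higher and IL6 was 4.13-fold higher. Together these were 4 of 12 measured chemokines and cytokines, with 0 lower, and the list median was 1.84 on PH7d replicate 1 and 0.29 on replicate 2. Of 17 NF-kB subunits and feedback genes, 3 were called higher and 0 lower. MAP3K8, a kinase of the pathway, was undetected in 2D7d and 8.86 and 7.10 in PH7d (at least 3.53-fold higher, limma adjusted p = 0.00449), NFKBIZ rose 8.13-fold, and NFKBIA, the inhibitor that the pathway itself induces, rose 2.59-fold. The median of these 17 genes was 0.50. Of the 4 chemokines and cytokines, 0 stayed called without 2D7d replicate 1, 2 without 2D7d replicate 2, 3 without PH7d replicate 1 and 4 without PH7d replicate 2.

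Several barrier and complement genes rose to a similar level on both PH7d arrays. S100A8, which with S100A9 forms the metal-binding protein calprotectin, was not detected in 2D7d (5.08 and 5.88) and was 12.20 and 11.36 in PH7d, at least 49.1-fold higher (limma adjusted p = 0.000251). S100A9 was 10.38 and 10.87 in 2D7d and 13.44 and 14.03 in PH7d, 8.62-fold higher (difference 3.11 ± 0.33, limma adjusted p = 0.00143). LCN2 (lipocalin 2), which binds the iron carriers of bacteria, was 9.72 and 9.78 against 14.06 and 13.93, 19-fold higher. For each of the 3 genes the distance between the groups was several times that between the arrays of a group. SPRR3, a precursor of the cornified envelope, was at least 6.12-fold higher and KLK7, a protease that sheds surface keratinocytes, was 3.68-fold higher. These 5 of 12 barrier genes were the ones called, 0 were lower, and all 5 kept their call without any 1 array. The medians of all 12 genes were 0.18 and 0.75 on the PH7d arrays.

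CFB, the protease of the alternative complement pathway, was 6.76 and 7.66 in 2D7d and 13.15 and 11.89 in PH7d, a difference of 5.31 ± 0.52 or 39.6-fold (limma adjusted p = 0.00143). C3, the central complement protein, was undetected in 2D7d (5.41 and 5.59) and was 8.75 and 8.82 in PH7d, at least 6.16-fold higher, and SAA1, an acute phase protein, was at least 2.88-fold higher. With LCN2 these were 4 of 10 complement and acute phase genes, with 0 lower. CFB, C3 and LCN2 kept their call without any 1 array. Of the 3 measured mucin and secretory genes, MUC1 rose 3.8-fold and S100P 2.99-fold, and of the 8 lineage factors only ELF3, an epithelial transcription factor, was called (3.62-fold higher).

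Of the NRF2 and glutathione list, 3 aldo-keto reductases had the largest rises. AKR1C3, which reduces steroids and prostaglandins, was not detected in 2D7d (4.72 and 4.74) and was 10.91 and 10.42 in PH7d, at least 22.6-fold higher (limma adjusted p = 0.000447). AKR1B10, which reduces retinal and lipid aldehydes, was 5.53 and 6.38 in 2D7d and 10.39 and 12.29 in PH7d, 41.9-fold higher (difference 5.39 ± 0.57, limma adjusted p = 0.00143). Replicate 1 of 2D7d did not detect AKR1B10. Its higher PH7d array was replicate 2, whereas replicate 1 was further from 2D7d for 305 of the 425 genes called higher. AKR1C2 was at least 7.2-fold higher. The AKR1C genes are close relatives, as are the AKR1B genes, so that a probe may read more than 1 of them. NQO1, a quinone reductase, rose 2.64-fold and GCLC, the rate-limiting enzyme of glutathione synthesis, 2.42-fold. These 5 of 16 genes of the NRF2 list were called higher and 0 lower, the list median was 0.49, and the 3 reductases kept their call without any 1 array. SLC7A11, the cystine carrier that feeds glutathione synthesis, went the other way. It was 7.33 and 7.22 in 2D7d and undetected in PH7d (4.92 and 5.23), at least 2.9-fold lower (limma adjusted p = 0.00395), the only one of 22 ATF4 and unfolded protein response genes called.

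The 15 largest falls belonged to genes of different kinds. MARCHF4, a membrane-bound ubiquitin ligase, was 11.10 and 10.93 in 2D7d and undetected in PH7d (4.59 and 5.28), at least 38.6-fold lower (limma adjusted p = 6.32e-05). KISS1, the precursor of kisspeptin, was 11.81 and 11.76 in 2D7d and 4.98 and 6.47 in PH7d, where 1 of the 2 arrays detected it, 66.8-fold lower (limma adjusted p = 0.00145). KRT34, a hair keratin, was 10.15 and 9.22 in 2D7d and undetected in PH7d, at least 15.3-fold lower, and COL13A1, a transmembrane collagen found at adhesion sites, was at least 11.5-fold lower. All 4 kept their call without any 1 array. Among the 15 largest falls were also KRT5, a keratin of basal cells (13.1-fold lower), the calcium-binding S100A3 (11.1-fold) and TMEM158 (11-fold). NOG, an antagonist of bone morphogenetic proteins, fell 10.4-fold, and the forkhead factors FOXQ1 and FOXD1 fell 10.2-fold and 9.67-fold. DLK2, a relative of the Notch ligands, fell 9.85-fold, and the kinase WNK4, undetected in PH7d, at least 6.3-fold. For S100A3, TMEM158, NOG and FOXQ1 only 1 of the 2 arrays of PH7d detected the gene, so that their folds rest partly on background.

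Targets of YAP and its partners, the TEAD factors, had a median of -0.85, with 4 of 17 measured genes called lower and 0 higher. AXL, a receptor kinase, was 12.07 and 11.93 in 2D7d and 6.12 and 6.84 in PH7d, a 45.9-fold fall (difference -5.52 ± 0.51, limma adjusted p = 0.00122). CCN2 and CCN1, secreted matrix proteins that serve as the usual readouts of YAP, fell 7.9-fold and 6.51-fold. CCN2 was 10.14 and 9.51 in 2D7d and 6.78 and 6.92 in PH7d, and CCN1 was 11.43 and 10.67 against 8.47 and 8.22. The PH7d arrays lay within 0.25 of each other for CCN1 and CCN2, so that both arrays showed these falls to a similar extent. TEAD4 fell 5.66-fold, from 10.34 and 10.56 to 6.99 and 8.90, and its call was lost in 3 of the 4 leave-outs, whereas AXL, CCN1 and CCN2 kept theirs without any 1. Over the 17 genes, both PH7d arrays were below both 2D7d arrays for 11 and above for 1, against 27.8% below and 27.4% above over all genes tested.

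The CCN2 promoter is shown because it holds 3 matches to the TEAD motif GGAATG, in capitals, all before the start of transcription. Of all promoters searched, 0.128% hold 3 or more matches and 14% hold any. It lies at chr6:131951323-131951622 (GRCh38.p14, minus strand, RefSeq).
CCN2: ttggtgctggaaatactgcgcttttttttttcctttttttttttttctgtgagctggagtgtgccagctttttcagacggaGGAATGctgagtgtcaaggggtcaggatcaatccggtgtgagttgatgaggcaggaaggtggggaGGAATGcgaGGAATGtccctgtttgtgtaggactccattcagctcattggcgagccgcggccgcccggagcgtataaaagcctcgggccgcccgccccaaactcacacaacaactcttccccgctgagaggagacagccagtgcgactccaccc
Of the 9 list members with a sequence, 6 held a match on either strand, against 14.8% of the 8892 genes tested with a sequence, and of the genes called lower 37 of 179 (20.7%) did, against 65 of 335 called higher (19.4%).

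Matrix and adhesion genes fell in part. Of 15 laminins, collagens and matrix proteins, 6 were called lower and 0 higher, with a median of -0.55. THBS1 (thrombospondin 1), an adhesive glycoprotein, was 8.02 and 7.59 in 2D7d and undetected in PH7d (4.98 and 4.91), at least 4.17-fold lower (limma adjusted p = 0.000665), and TGFBI, a matrix protein that binds integrins, was 11.43 and 11.07 against 8.45 and 8.57, 6.66-fold lower (limma adjusted p = 0.0011). The basement membrane chains COL4A1 and COL4A2 fell 2.81-fold and 5.29-fold, COL6A1 4.91-fold and the laminin chain LAMB3 4.17-fold. THBS1 and TGFBI were even between the PH7d arrays and kept their call without any 1 array, while for the 4 other genes PH7d replicate 1 was the lower array and the call was kept only where the array left out was PH7d replicate 2.

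Among 9 integrin subunits, ITGB4, the partner of the laminin-binding alpha chain in hemidesmosomes, fell 4.42-fold, ITGB5 2.27-fold and ITGA3 2.09-fold, and 0 were higher. ITGB4 was 11.38 and 11.17 in 2D7d and 8.30 and 9.96 in PH7d. With the group weights ITGB4 stayed called (limma adjusted p = 0.0273), and ITGB5 (0.134) and ITGA3 (0.157) did not. The structural genes of focal adhesions differed little, since VCL (vinculin) was 12.92 and 12.30 against 13.08 and 12.10 and ZYX (zyxin) 12.34 and 12.39 against 11.83 and 12.01, and of the 17 genes of this list only TNS4 was called (at least 3.18-fold lower). Of 18 actin genes of the SRF type only TAGLN (transgelin) was called, 4.7-fold lower, from 10.91 and 10.74 to 8.63 and 8.56, while ACTB and ACTG1 differed by -0.04 ± 0.20 and 0.04 ± 0.20. SERPINE2, a protease inhibitor, fell 6.3-fold and TIMP3, an inhibitor of metalloproteinases, 2.74-fold, the called genes among 14 proteases and inhibitors, and LTBP2, a matrix protein related to the carriers of TGF-beta, fell 7.26-fold and was the only called gene of 10 in the TGF-beta list. The 3 integrins kept their calls only where the array left out was PH7d replicate 2.

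Calls among mesenchymal genes were all falls, and epithelial junction genes gave no call. SNAI2 (Slug), a repressor of CDH1, was 10.07 and 9.18 in 2D7d and 7.02 and 7.09 in PH7d, 5.95-fold lower (limma adjusted p = 0.00347). CDH2 (N-cadherin) fell 3.88-fold, from 10.49 and 9.61 to 7.96 and 8.23, and CD44, the hyaluronan receptor, fell 2.6-fold, from 13.91 and 13.27 to 12.19 and 12.24. These 3 of 7 genes were called, 0 were higher and the median was -1.01. With the group weights SNAI2 stayed called (limma adjusted p = 0.0192), and CDH2 (0.0738) and CD44 (0.113) did not. Of 18 junction genes 0 were called, with a median of 0.57. This lies near the shares over all genes tested, 3.87% higher and 2.36% lower. CDH1 (E-cadherin) was 12.44 and 11.72 in 2D7d and 12.86 and 12.45 in PH7d, a difference of 0.58 ± 0.29 (limma adjusted p = 0.248), and EPCAM differed by 1.06 ± 0.35 (adjusted p = 0.106). CD24, a surface glycoprotein used beside CD44 to define stem-like cells, was 12.23 and 11.68 against 14.35 and 13.03 (difference 1.73 ± 0.48, limma adjusted p = 0.0673). Of 10 keratins only KRT34 and KRT5 were called, and KRT19 differed by 0.02 ± 0.23.

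**Figure D3:**
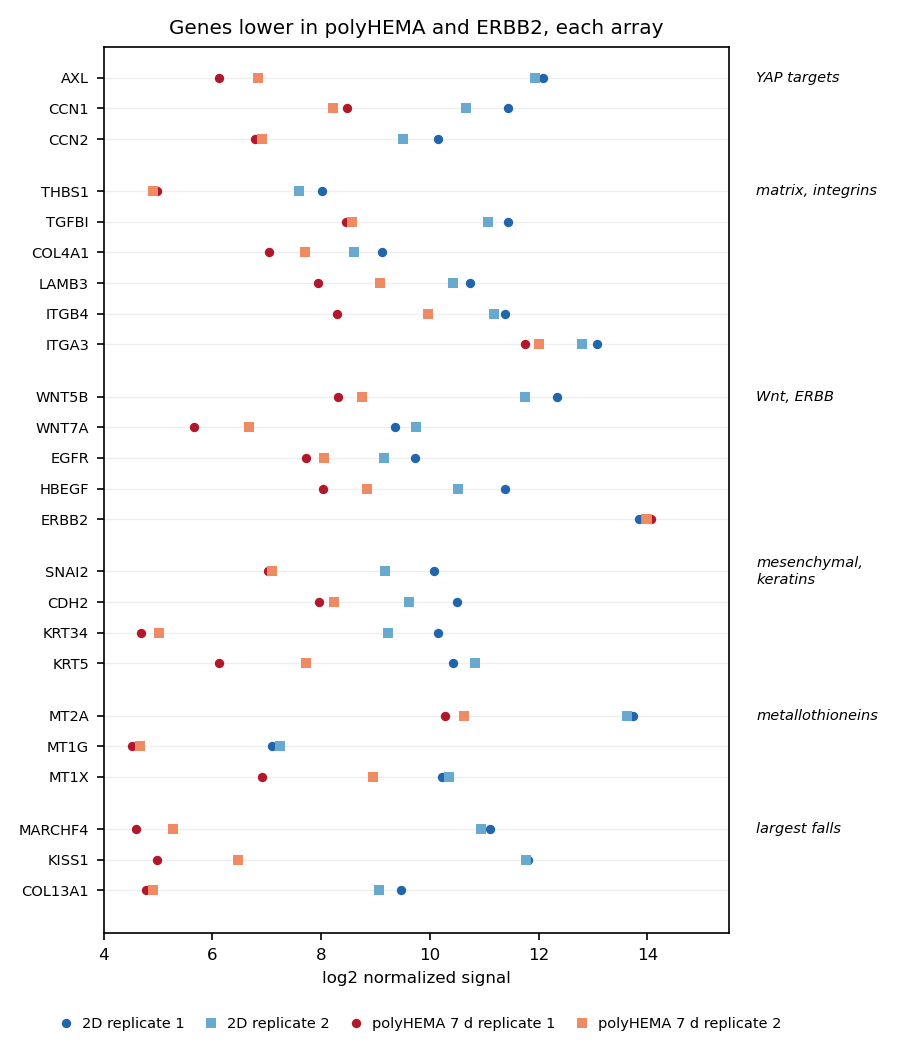
Log2 normalized signal of 24 genes on each of the 4 arrays, with 2D7d in blue and PH7d in red, circles for replicate 1 and squares for replicate 2. In every row but ERBB2 both PH7d points lie to the left of both 2D7d points, and ERBB2 is between 13.85 and 14.07 on all 4 arrays.

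The ERBB family changed around an even ERBB2, which differed by 0.12 ± 0.23 (limma adjusted p = 0.731). EGFR, the partner receptor, was 9.72 and 9.15 in 2D7d and 7.73 and 8.06 in PH7d, 2.91-fold lower (limma adjusted p = 0.0142). Among the ligands, HBEGF was 11.38 and 10.51 against 8.03 and 8.85, 5.69-fold lower, and NRG1, the ligand of ERBB3 and ERBB4, was 7.53 and 7.65 in 2D7d and undetected in PH7d, at least 3.6-fold lower. Other ligands were higher at low levels, BTC (betacellulin) being at least 2.62-fold higher and EGF at least 1.41-fold higher, both undetected in 2D7d. LRIG1, which promotes the degradation of these receptors, fell 4.46-fold. Thus 2 of 13 genes were called higher and 4 lower, with a median of 0.10. With the group weights 0 of the 2 higher genes and 3 of the 4 lower genes stayed called, EGFR being the exception (limma adjusted p = 0.0835). The number called was 2 without PH7d replicate 1, 6 without PH7d replicate 2, 0 without 2D7d replicate 1 and 3 without 2D7d replicate 2. FOSL1, SPRY4 and DUSP4, which respond to the MAP kinase ERK, fell 7.18-fold, at least 4.35-fold and 3.11-fold and JUN fell 2.55-fold. In contrast, FOS and ATF3 rose 7.86-fold and 2.06-fold, so that 2 of 21 AP-1 and immediate early genes were higher and 4 lower. With the group weights 0 of these 2 and 2 of these 4 stayed called, DUSP4 (limma adjusted p = 0.0791) and JUN (0.106) being lost among the falls. Without single arrays the differences ran from -3.61 to -2.08 for FOSL1, -2.50 to -1.96 for SPRY4 and -1.87 to -1.41 for DUSP4. SPRY1, a relative of SPRY4 outside the list, was called higher, also with the group weights (limma adjusted p = 0.0291). A link of these genes to the ERBB genes was not tested. SOCS3, a feedback inhibitor of cytokine receptors, fell 4.79-fold and BCL6 rose 2.37-fold, the only 2 called of 9 genes in the SOCS list. Of 18 genes of the PI3K, Akt and mTOR list, SESN1 (at least 2.2-fold) and PIK3R3 were called higher, both undetected in 2D7d, and AKT1 differed by -0.21 ± 0.35.

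The called genes of the Wnt list all fell. Outside this list WNT3 and WNT9A were also called lower, whereas the receptor FZD4 was called higher. WNT5B was 12.34 and 11.74 in 2D7d and 8.31 and 8.75 in PH7d, 11.4-fold lower (difference -3.51 ± 0.44, limma adjusted p = 0.00277). WNT7A was 9.36 and 9.75 against 5.67 and 6.68, 10.4-fold lower, and DKK1, a secreted inhibitor of Wnt signaling, and the receptor FZD2 fell 4.59-fold and 3.16-fold. The other 10 of 14 measured genes were not called, and the list medians were -0.76 on PH7d replicate 1 and 0.07 on replicate 2.

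Metallothioneins, which bind zinc and copper, had the lowest median of the lists with at least 5 measured genes, -2.36 over 5 genes, of which 4 were called lower and 0 higher. MT2A was 13.73 and 13.62 in 2D7d and 10.27 and 10.63 in PH7d, a difference of -3.23 ± 0.29 or 9.36-fold (limma adjusted p = 0.0011). MT1G was 7.10 and 7.24 in 2D7d and undetected in PH7d (4.52 and 4.66), at least 2.69-fold lower, and MT1E was at least 1.8-fold lower. MT1X was 10.23 and 10.35 against 6.91 and 8.95, 5.14-fold lower, with PH7d replicate 1 the lower array. MT2A and MT1G kept their call without any 1 array and MT1X and MT1E kept theirs only where the array left out was PH7d replicate 2. Metallothionein genes are near copies of each other, so that the probes may share targets.

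The MT2A promoter is shown because it holds 8 matches to the core of the metal response element, TGCACNC or TGCGCNC on either strand, in capitals. Of all promoters searched, 0.601% hold 4 or more matches and 29.6% hold any. Among the genes tested with a sequence the shares were 1.16% and 46.2%, and 44.1% of the genes called lower with a sequence held any, so that a single match was common. It lies at chr16:56608334-56608633 (GRCh38.p14, plus strand, RefSeq).
MT2A: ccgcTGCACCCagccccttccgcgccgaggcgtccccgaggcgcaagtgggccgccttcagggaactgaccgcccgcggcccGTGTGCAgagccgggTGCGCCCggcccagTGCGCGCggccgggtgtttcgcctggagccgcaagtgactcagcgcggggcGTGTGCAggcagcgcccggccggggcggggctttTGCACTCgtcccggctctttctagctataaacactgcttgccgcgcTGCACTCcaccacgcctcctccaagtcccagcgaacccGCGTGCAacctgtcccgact
MT1X, the only other metallothionein with a sequence, held 4 matches.

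No gene of the proliferation lists was called, where 3.87% of all genes tested were called higher and 2.36% lower. In lists of this size the absence of calls lies near these shares. Of 23 mitosis and G2/M genes 0 were called at the adjusted limit, and the median was -0.91, with -1.08 on replicate 1 and -0.60 on replicate 2. Both PH7d arrays were below both 2D7d arrays for 16 of the 23 and above for 0. Over all genes tested, 27.8% lay below and 27.4% above in this way. UBE2C, which targets mitotic proteins for degradation, was 13.23 and 13.43 in 2D7d and 11.54 and 12.82 in PH7d (difference -1.15 ± 0.37, limma adjusted p = 0.0979), and CDC20, the activator of the anaphase-promoting complex, was 13.28 and 13.49 against 11.13 and 12.57 (-1.53 ± 0.43, adjusted p = 0.0672). Of 21 DNA replication genes 0 were called, with a median of -0.47. Some regulators that oppose growth were called higher. MXD1, an antagonist of MYC, was 6.33 and 6.43 in 2D7d and 9.61 and 8.70 in PH7d, 6.85-fold higher (limma adjusted p = 0.00143). The CDK inhibitor CDKN2B rose 6.53-fold, BTG1 6.28-fold, and the cyclin CCNG2, associated with cell cycle exit, was undetected in 2D7d and at least 2.89-fold higher, 4 of 21 genes in this list. With the group weights MXD1, BTG1 and CCNG2 stayed called and CDKN2B did not (limma adjusted p = 0.0597). Without single arrays the difference ran from 1.57 to 3.84 for CDKN2B and from 1.92 to 3.38 for BTG1. CDKN1A (p21) was 10.08 and 10.44 against 11.10 and 11.74 (difference 1.16 ± 0.34, limma adjusted p = 0.0774), and MYC had a mean of 11.94 in 2D7d and 11.12 in PH7d (-0.81 ± 0.25, adjusted p = 0.089), neither passing the limit.

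Of the genes of cell death, TNFSF10 (TRAIL), a death ligand, rose most. It was undetected in 2D7d (4.62 and 4.52) and was 10.88 and 8.11 in PH7d, at least 10.1-fold higher (limma adjusted p = 0.00408). CASP1, the inflammatory caspase, was at least 2.74-fold higher and CFLAR, which blocks caspase 8, was 2.92-fold higher, 3 of 13 genes of that list. Of 15 BCL2 family and anoikis genes, PMAIP1 (NOXA) was at least 1.72-fold higher and BID 2.31-fold higher, both of them promoters of cell death, and the median was -0.01. Among 19 autophagy and lysosome genes the protease CTSL (2.9-fold) and GABARAPL1 (2.38-fold) were higher. TNFSF10 kept its call without any 1 array, while PMAIP1, CASP1 and CFLAR lost theirs in 2 of the 4 leave-outs and BID, CTSL and GABARAPL1 in 3.

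Metabolic and housekeeping lists gave few calls. Since 3.87% of all genes tested were called higher and 2.36% lower, few or no calls do not set such short lists apart. Of 31 hypoxia and glycolysis genes 3 were called higher, the glucose carrier SLC2A3 (4.34-fold), CA12 (at least 1.81-fold) and KDM3A (at least 2.59-fold), and the list median was 0.16. DHCR7, the last enzyme of cholesterol synthesis, fell 3.2-fold, the only called gene of 18 in lipid synthesis. Of 29 respiratory chain genes, 26 cytosolic ribosomal proteins and 18 heat shock genes 0 were called, with medians of -0.28, -0.23 and 0.37. Of 24 proteasome subunits PSMA2 alone was called (at least 2.02-fold higher), of 11 housekeeping genes B2M alone, and of 3 measured endothelial markers PECAM1 alone, which was 6.20 and 6.26 in 2D7d and 8.19 and 7.54 in PH7d. In these bulk cultures, a change in the share of cells that make a transcript and a change in its amount per cell cannot be told apart.

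**Figure D4:**
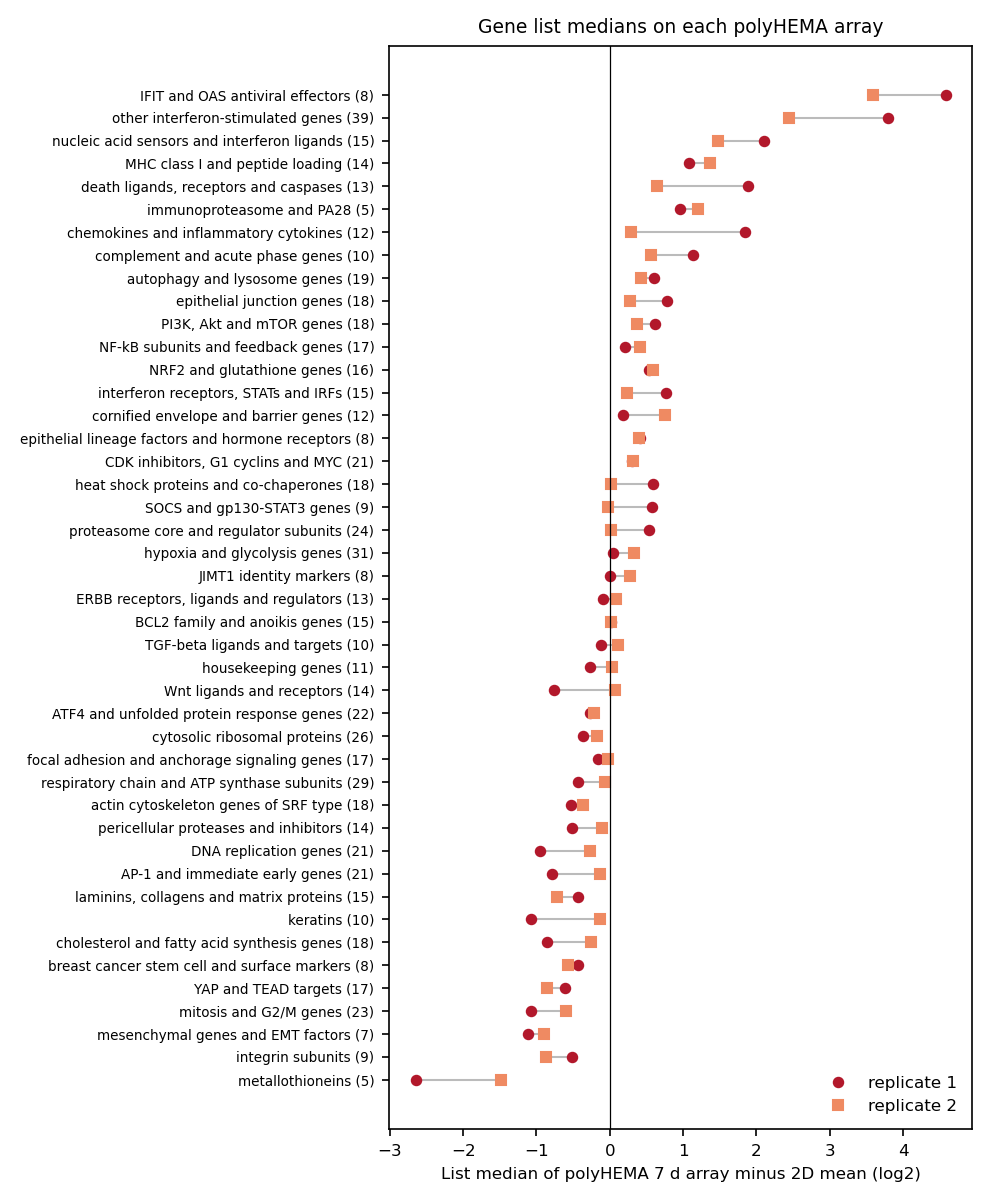
Median difference from the 2D7d mean, in log2 units, over the measured genes of each list with at least 5 such genes, on PH7d replicate 1 (dark circles) and replicate 2 (light squares). The number of measured genes stands in parentheses, both arrays are highest for the IFIT and OAS genes (4.58 and 3.59), and both are lowest for the metallothioneins (-2.65 and -1.48).

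Some genes moved in opposite directions on the PH7d arrays and cancel in the mean. Replicate 1 was above and replicate 2 below both 2D7d arrays for 918 genes, and the reverse held for 1011. By at least 2-fold on each side these were 5 genes and 0 genes. The genes chosen for the widest gaps of the first kind were AHCTF1, CEP350, KIF5B, CDK6 and MAP3K20, whose values describe this choice. KIF5B, a motor protein heavy chain, was 7.03 and 6.38 in 2D7d, 9.44 on PH7d replicate 1 and 5.22 on replicate 2, and CDK6, a kinase of the G1 phase, was 6.80 and 6.43, then 8.23 and 5.37. Of the second kind, TIMP4, an inhibitor of metalloproteinases, was 7.31 and 7.25 in 2D7d, 5.98 on PH7d replicate 1 and 8.05 on replicate 2, and ZNF385A, GDPD5, ATG13 and NSMCE3 followed. The deviations of replicate 1 from its group mean in PH7d and in polyHEMA cultures of 4 days (PH4d) had a correlation of 0.87 across the 10970 genes, which are not independent replicates. Against PH4d, 0 genes of PH7d were called with limma and 125 had an unadjusted p under 0.05. That fit did not pair arrays by number, so the replicate difference shared by PH4d and PH7d counted as spread. The 0 calls therefore do not show that the cultures of 4 and 7 days are alike.

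The other 3D culture of the same age, 7 days on Matrigel (MG7d), was used to ask where PH7d stands apart from it. The Matrigel cells grew on a gel of basement membrane proteins and, according to the study's text, in medium with less serum, and the gel was dissolved with the enzyme Dispase before RNA isolation. The group has 2 arrays. In this comparison 611 genes were higher in PH7d (5.57%) and 421 lower (3.84%). PH7d exceeded MG7d for IFI27 by 8.35 on the log2 scale (limma adjusted p = 0.00161), for OAS2 by 8.16 (adjusted p = 0.00161), for S100A8 by 6.37 (adjusted p = 0.000183), for HLA-B by 6.33 (adjusted p = 0.000628) and for LCN2 by 5.52 (adjusted p = 0.000924). PH7d minus MG7d was -3.76 ± 0.51 for AXL (limma adjusted p = 0.00292) and -3.39 ± 0.29 for MT2A (limma adjusted p = 0.000493). Other genes gave no called difference between these cultures, such as CCNG2 (0.26 ± 0.32, limma adjusted p = 0.609), DKK1 (-0.07 ± 0.33, adjusted p = 0.905), TAGLN (0.10 ± 0.31, adjusted p = 0.85), SLC7A11 (-0.27 ± 0.30, adjusted p = 0.582) and MAP3K8 (-0.87 ± 0.48, adjusted p = 0.275), each of which differed from 2D7d. The same PH7d arrays enter both comparisons. No test was made of whether the difference from 2D7d and the difference from MG7d themselves differ.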

How the data were processed

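RNA of 12 JIMT1 samples, 2 biological replicates in each of 6 groups, had been hybridized to Illumina HumanHT-12 v4 arrays. The authors deposited bead intensities that had not been normalized, 1 value per probe and array. The authors' table also gives a detection p-value for each intensity, which compares it with negative control beads. A second table deposited by the authors holds log2-scale values made with lumi by a variance-stabilizing transformation and quantile normalization, and its rows were matched to the first table by rank and used only as an alternative, because only 8799 of 47323 matched rows carry the same probe name in both. Gene names here rest on the probe names of the first table, and which set of names is right could not be settled.

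With limma 3.58.1 in R 4.3.3, background was corrected by normexp guided by the detection p-values, an offset of 16 was added, and values were quantile-normalized and log2-transformed. A probe stayed in if any group detected it (p under 0.01) on each of its 2 arrays, which left 18308 of 47323, 14562 of them with 1 gene symbol. A gene undetected in 2D7d thus had little room to be called lower, and one undetected in PH7d had little room to be called higher. Where several probes named 1 gene, the brightest on average was taken, so that 10970 genes were tested. The fit took all 12 arrays together, each group having its own mean, with empirical Bayes moderation and Benjamini-Hochberg adjustment. It was tested on simulated data in which all arrays had the same spread for a gene, so that this test does not cover the wider spread of PH7d. For genes undetected on both arrays of the dimmer group, folds are bounds, taken per array from the faintest detected probe or from the gene's own value if brighter. Where only 1 array of the dimmer group detected the gene, the plain fold is given, and it rests partly on background. The p-values measure only the spread between these samples, and 2 arrays per group limit the precision.

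Genes named were the 15 largest rises and 15 largest falls, up to 6 called members of each list or otherwise the 3 with the highest mean level, the 5 genes furthest apart on opposite sides in each direction, CDKN1A, MYC and the identity markers. CD24, FZD4, HERC5, IFNB1, ISG15, MX1, OASL, PSMB8, PSMB9, SPRY1, WNT3 and WNT9A fall outside this rule and were chosen after their values were seen. The genes, lists and tests were chosen with earlier results of these data known. Alternatives changed the background correction, offset, scaling, detection filter, probe choice, arrays fitted, array weights and thresholds.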

Additional observations from a re-analysis of the deposited data

How the results depend on the processing

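Of 199 named genes tested in the alternatives, 0 of the 127 called and 31 of the 72 not called changed sign under any of them, and 2 of the 684 called genes had the opposite sign with the detection limit at 0.05 or without a filter, where another probe could stand for the gene. The numbers of called genes moved with the setting. Against 425 higher and 259 lower genes in PH7d, the authors' processed values gave 189 and 150, weights estimated for each group gave 192 and 109, a fit of the 4 arrays alone gave 10 and 5, and the 2-fold limit alone gave 1402 and 873. Of the 684 called genes, 291 stayed called with the authors' values and 293 with the group weights, in which PH7d had a weight of 0.213 and 2D7d of 1.42. Leaving out single arrays gave 102 to 1482 higher and 54 to 1354 lower genes, the lowest without 2D7d replicate 1 and the highest without PH7d replicate 2. The count of 801 genes at least 2-fold from 2D7d on each PH7d array was 390 without background correction, 515 with an offset of 50 and 255 with the authors' values, and 816 to 4642 without single arrays. The count of 6056 genes with both PH7d arrays on the same side of both 2D7d arrays was 9297 without a detection filter and 7211 to 10093 without single arrays. Against MG7d, the counts of 611 and 421 were 325 and 214 with the authors' values, 366 and 227 with group weights, and 396 to 1064 and 314 to 1076 without single arrays. The cause of the other shifts was not tested. Replicate numbers were not known to pair the samples, and correlations of the replicate 1 deviations between groups ran from -0.12 to 0.87. With the replicate block 618 genes were higher and 496 lower, all 684 called genes stayed called, and 4 of the 199 named genes became called. With no background correction, 297 genes were higher and 222 lower. With the 4 arrays alone, 117 of the 127 called named genes lost their call. Genes near background have only bounds on their folds.

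Among the named genes, all sign changes concerned genes without a call. With median scaling the log2 differences that turned negative were ACTG1 -0.13, DDIT4 -0.01, EEF1A1 -0.09, ERBB2 -0.26, FASN -0.12, KLK5 -0.28, KLK6 -0.16, KRT19 -0.34, RPLP2 -0.06, TIMP1 -0.05 and XBP1 -0.11. With the mean of detected probes they were ACTG1 -0.21, ERBB2 -0.06, KLK5 -0.08, TFAP2A -0.04 and XBP1 -0.05. Without single arrays the differences that crossed 0 were ACTB -0.11 to 0.03, ACTG1 -0.03 to 0.12, AKT1 -0.67 to 0.26, ATF4 -0.30 to 0.12, ATP5F1B -0.44 to 0.03, CLDN7 -0.49 to 0.21, COL1A1 -0.34 to 0.41, COX4I1 -0.31 to 0.04, COX5B -0.19 to 0.12, CSF1R -1.05 to 0.06, DDIT4 -0.20 to 0.48, FAP -0.15 to 0.41, FASN -0.20 to 0.58, HSPD1 -0.28 to 0.92, KLK5 -0.06 to 0.12, KRT19 -0.15 to 0.18, LAMP1 -0.18 to 0.10, MCM3 -0.40 to 0.06, PIM1 -1.05 to 0.20, PSMB7 -0.43 to 0.05, RPL18 -0.17 to 0.13, RPL19 -0.03 to 0.02, SCD -0.21 to 0.72, TIMP1 -0.01 to 0.39, VCL -0.51 to 0.47 and XBP1 -0.14 to 0.24.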

Other observations

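Several called genes lay outside the lists and were chosen after their values were seen, from those that kept their call without any 1 of the 4 arrays. The butyrophilins BTN3A1, BTN3A2 and BTN3A3, surface proteins through which human gamma delta T cells recognize phosphoantigens, were undetected in 2D7d and detected on both PH7d arrays. BTN3A2 was 4.66 and 4.95 in 2D7d and 9.13 and 8.55 in PH7d, at least 6.4-fold higher (limma adjusted p = 0.000429), and BTN3A1 and BTN3A3 were at least 5.25-fold and 2.66-fold higher. VTCN1 (B7-H4), an inhibitory ligand for T cells, was also undetected in 2D7d and at least 2.43-fold higher, and IL15, a cytokine of T and NK cells, was at least 1.7-fold higher. UBA7, the activating enzyme for ISG15, was 4.99 and 6.71 against 9.99 and 9.49, 14.8-fold higher. TXNIP, the thioredoxin-binding protein that restrains glucose uptake, was 7.06 and 8.32 against 12.56 and 11.35, 19.2-fold higher.

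Among the falls chosen in the same way, CAV1 (caveolin 1), the coat protein of caveolae, was 12.38 and 11.64 in 2D7d and 9.68 and 9.60 in PH7d, 5.16-fold lower (limma adjusted p = 0.00348). SGK1, a kinase related to Akt, was 12.14 and 11.68 against 9.47 and 9.55, 5.28-fold lower. FGFR1, a receptor for fibroblast growth factors, was 7.12 and 7.26 in 2D7d and undetected in PH7d, at least 2.73-fold lower, and IL13RA2, a decoy receptor for interleukin 13, was at least 4.59-fold lower. ADAMTS1, a secreted protease of the matrix, was 9.16 and 8.68 against 5.88 and 6.27, 7.2-fold lower.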
